A study of Mus musculus with 2 samples.

Results

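ATP-dependent chromatin remodelers use the energy of ATP to slide, evict or exchange nucleosomes, the units of DNA wrapped around histones. They work as large complexes built around an ATPase, and fall into families named INO80, SWI/SNF (BAF in mammals), CHD (including NuRD) and ISWI. In embryonic stem cells (ESCs) the BAF complex uses a characteristic set of paralogous subunits, which is exchanged for others as cells become neurons or muscle. Here the transcripts of 60 genes of these complexes were examined, chosen by symbol from the 24354 genes measured. All 60 were found: 15 subunits of INO80, 8 of SRCAP/TIP60, 20 of SWI/SNF, 13 of NuRD and other CHD remodelers, and 4 of ISWI. Each gene was counted under 1 complex, although Ruvbl1, Ruvbl2 and Actl6a serve several.

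Poly(A) RNA came from a single control culture (Diff–CONT) and a single culture with an inducible Ino80 knockout (Diff–iKO), both of differentiating ESCs. With 1 library per condition, replicate variation is unknown. The study's methods describe the control as Ino80 2f/2f, a floxed allele, and the iKO line as Ino80 2f/2f;ROSA26-CreER, whereas the sample labels call the control WT. Both lines came from blastocysts. Both formed embryoid bodies, and both then received medium with BMP4 and 0.5 µM 4-OHTM, the tamoxifen metabolite that activates CreER, for 7 days. The level of a gene is its FPKM, a fragment count divided by transcript length and by library size, so that levels can be compared between genes. About 28244940 fragments lay on annotated genes in the Diff–CONT library against 22015113 in the library labelled Diff–iKO, recovered from the steps in which low FPKM values rise. These fragments gave each ratio an exact 95% counting interval, which holds counting error alone and leaves out how much cultures vary. In bulk RNA, fewer cells of a type and less RNA per cell cannot be told apart.

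The sequence of Ino80 exon 6 is shown because the study describes its Ino80 qPCR primers as detecting this exon. Which exons the floxed allele loses is not stated there. The exon lies at chr2:119451330-119451450 of GRCm38, on the minus strand, and is coding throughout.
Ino80 exon 6: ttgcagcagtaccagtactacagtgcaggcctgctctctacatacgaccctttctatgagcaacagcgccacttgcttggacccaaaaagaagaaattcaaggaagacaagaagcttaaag
It holds 121 of the 6354 nucleotides of the annotated transcript (1.90%), and its length leaves a remainder of 1 when divided by the codon length.

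Ino80, the ATPase of its complex, was read at 8.90 FPKM in Diff–CONT and, under the Diff–iKO label, at 10.3. The log2 ratio was 0.21 (interval 0.11 to 0.31, from 1651 and 1428 fragments), so its whole-gene level was higher and not lower. FPKM per gene does not resolve an exon of this size, and whether the transcript lacks it cannot be read from these values. All directions below are therefore those of the library labelled Diff–iKO relative to Diff–CONT.

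Few of the 60 genes differed widely between the libraries. Of the 58 that reached an FPKM of 2 in at least 1 library, 2 differed 2-fold or more, Dpf3 and Smarca1, both lower. With an FPKM of 2 required in both libraries, 1 remained, Smarca1. The 2 genes are 3.45% of the 58, against 15.1% of all 12376 genes that reached the same minimum (8.39% lower and 6.73% higher). Among genes whose FPKM averaged 5 or more, the share past 2-fold was 10%. A 1.5-fold difference was reached by 7 members: Mta3 and Ino80d were higher, and Dpf3, Smarca1, Actr5, Dpf2 and Chd7 were lower. This is 12.1%, against 32.5% of all genes and 26.6% of those averaging 5 or more. The median size of the log2 ratio, taken without its sign, was 0.27 over the 60 genes and 0.38 over the 13121 genes averaging an FPKM of 1 or more. Across the 60 genes, Pearson's r of log2 FPKM between the libraries was 0.944, a description across genes that are not independent. It was close to that, at 0.925, over the 11161 genes with an FPKM of at least 2 in both libraries. Beyond counting error, 21 members were higher and 24 lower, against 38.8% higher and 39.1% lower among all genes. Scaling each library to the same sum of FPKM moved the median log2 ratio of genes with an FPKM of at least 2 in both libraries to -0.09. Beyond counting error, the members then split into 16 higher and 31 lower, against 31.9% and 46% of all genes under the same scaling.

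**Figure D1:**
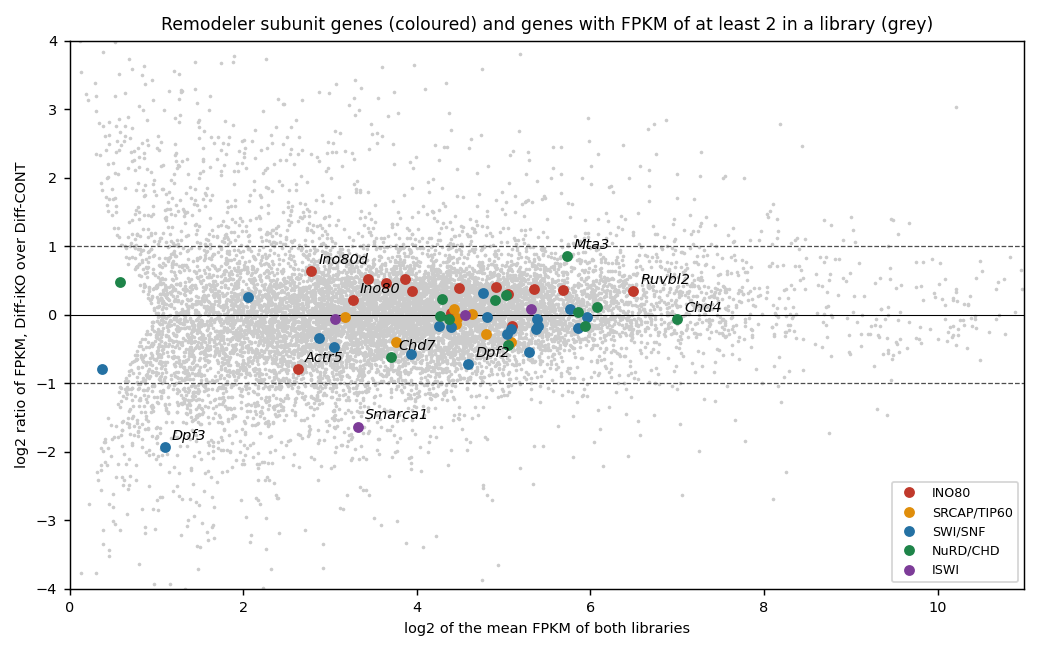
Log2 ratio of FPKM (Diff–iKO over Diff–CONT, as labelled) against the log2 of the mean FPKM of both libraries, with the 60 remodeler genes coloured by complex and 12307 genes with FPKM of at least 2 in a library in grey (45 more lie outside the axes). Dashed lines mark 2-fold, which Dpf3 and Smarca1 pass, while 13 of 15 INO80 genes lie above 0 and Actr5 and Yy1 lie below it.

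In level, Chd4 led the 60 genes in both libraries with an FPKM of 130 and 125. Chd4 is the main ATPase of NuRD in most cells. Ruvbl2 followed with 79.4 and 100.8. Chd5, a Chd4 paralogue best known from neurons, was lowest in Diff–CONT (1.25), and Dpf3 was lowest in the library labelled Diff–iKO (0.884). Mta3 moved from rank 17 to rank 4, Dpf2 from rank 23 to rank 40 and Smarce1 from rank 9 to rank 21.

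**Figure D2:**
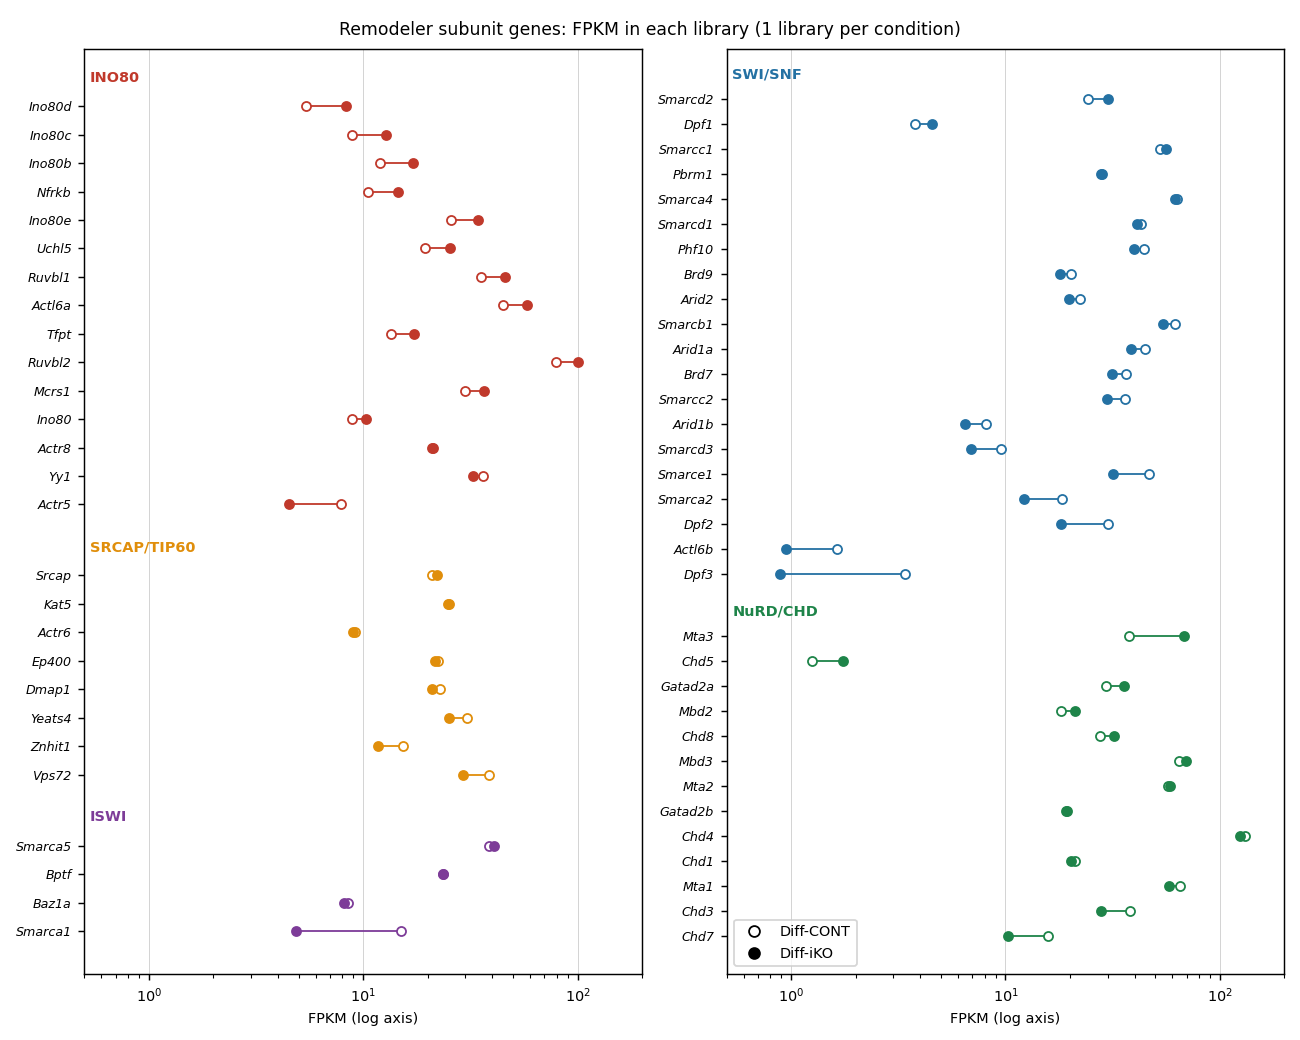
FPKM of each remodeler gene on a log axis, with open circles for the Diff–CONT library and filled circles for the library labelled Diff–iKO, grouped by complex and sorted by ratio. Filled circles lie to the right in 13 of 15 INO80 genes and to the left in 17 of 20 SWI/SNF genes.

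INO80 transcripts were mostly higher in the library labelled Diff–iKO. Of 15 genes, 13 had a higher value, 12 of them beyond counting error, against 49.7% of all genes with a higher value and 38.8% beyond counting error. The median log2 ratio was 0.37 (quartiles 0.26 and 0.43), while the median of all genes was -0.01. Past 1.5-fold, 1 gene of the 15 was higher and 1, Actr5, was lower (14.9% and 17.6% of all genes). Past 2-fold there were 0 genes (15.1% of all genes). The median size of the log2 ratio without its sign was 0.37, close to the 0.38 of all genes averaging an FPKM of 1 or more. Scaling both libraries to the same sum of FPKM lowered every log2 ratio by 0.09, which left 12 INO80 genes higher. It turned the sign of 6 of the 60 genes (Actr8, Srcap, Kat5, Smarcc1, Mta2 and Smarca5). Where these are counted as higher, the direction holds only for the values as deposited.

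The genes were also grouped by where the proteins sit in the complex, a grouping made after their values were seen. The N-terminal part of the Ino80 protein carries subunits found in animals but not in yeast. All 6 of their genes were higher beyond counting error (38.8% of all genes), with log2 ratios between 0.31 and 0.63. Ino80d had the largest value of the complex, with an FPKM of 5.39 in Diff–CONT and 8.35 under the Diff–iKO label (log2 ratio 0.63, interval 0.55 to 0.71). Nfrkb went from 10.5 to 14.5 (0.46), and Uchl5, a deubiquitinase held by the complex and also by the proteasome, from 19.4 to 25.5 (0.39). Ino80e (25.8 and 34.2), Tfpt (13.5 and 17.2) and Mcrs1 (29.7 and 36.7) lay in the same range.

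The ATPase core holds Ino80 itself, the Ruvbl1 and Ruvbl2 helicases, which form a ring, and the Ino80b, Ino80c and Actr5 subunits. The core genes other than Actr5 were higher. Ino80c went from 8.89 to 12.8 (log2 ratio 0.53, interval 0.37 to 0.69) and Ino80b from 11.9 to 17.1 (0.52, interval 0.29 to 0.75). Ruvbl1 had 35.5 and 46.0, and Ruvbl2 had 79.4 and 100.8, so Ruvbl1 made up 30.9% and 31.3% of their sum. The helicase pair thus kept nearly the same proportion.

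Actr5 stood apart. It encodes the actin-related protein that pairs with Ino80c on the nucleosome, and lies on chromosome 2 from 158624888 to 158639211 (GRCm38). Its FPKM was 7.84 in Diff–CONT and 4.52 under the Diff–iKO label, or 1.74-fold lower with a log2 ratio of -0.80 (interval -1.03 to -0.56, from 521 and 225 fragments). Its partner Ino80c was higher. In the module of actin-related proteins and the transcription factor Yy1, Actl6a was higher (44.9 and 57.8, log2 ratio 0.37), Actr8 was within counting error (20.9 and 21.2) and Yy1 was lower (36.2 and 32.4, log2 ratio -0.16, interval -0.22 to -0.10).

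SRCAP and TIP60 put the histone variant H2A.Z into nucleosomes, the exchange that INO80 is known to act on as well. Their 8 genes had a median log2 ratio of -0.09, with 6 lower (49.7% of all genes were higher). The other 2, Srcap and Kat5, had slightly higher values that turned under the same-sum scaling, so that 0 of 8 were then higher. The large scaffolding ATPases differed little: Srcap had an FPKM of 21.0 and 22.1 (log2 ratio 0.08, interval 0.02 to 0.13), and Ep400 had 22.3 and 21.6. Kat5, the acetyltransferase of TIP60, had 24.8 and 25.02. Beyond counting error, 3 of the 8 genes were lower, near the 39.1% of all genes, and 1 was higher. Vps72, a chaperone of H2A.Z, had 38.7 and 29.3 (log2 ratio -0.40, interval -0.53 to -0.28). Znhit1, a small subunit of SRCAP, had 15.3 and 11.7 (-0.39, interval -0.71 to -0.09), and Yeats4, a reader of acetylated histones, had 30.6 and 25.1 (-0.28, interval -0.43 to -0.14). The intervals of Dmap1 (22.8 and 20.8) and Actr6 (9.11 and 8.93, the lowest of the group) included 0.

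The 23 INO80 and SRCAP/TIP60 genes had a median log2 ratio of 0.21, and the 37 SWI/SNF, NuRD/CHD and ISWI genes had -0.07. The first median became 0.05 when the shared Actl6a, Ruvbl1 and Ruvbl2 were left out. That of INO80 alone stayed at 0.37 without them. Since genes of one library are not replicates, no test was made between these groups.

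**Figure D3:**
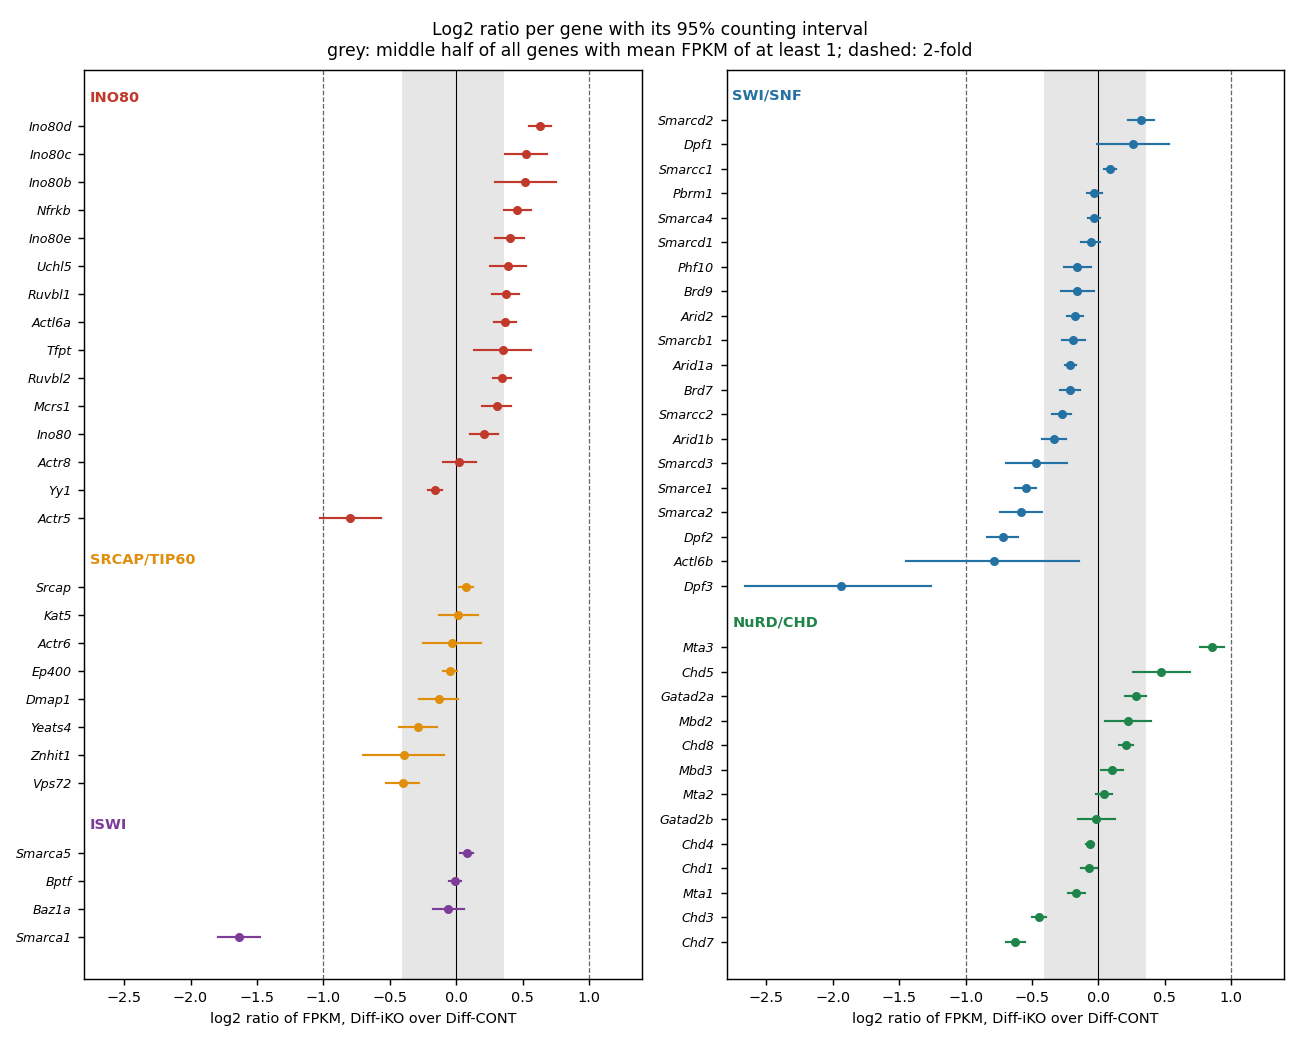
Log2 ratio of FPKM (Diff–iKO over Diff–CONT, as labelled) for each remodeler gene with its exact 95% counting interval, and the middle quartiles of all genes averaging an FPKM of 1 or more in grey. The 6 genes of the INO80 N-terminal part lie between 0.31 and 0.63, Actr5 lies at -0.80, and the wide intervals of Dpf3 and Actl6b come from their low fragment counts.

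SWI/SNF genes leaned the other way. Of 20 genes, 17 had a lower value (49.7% of all genes had a higher one). Of the 19 that reached an FPKM of 2, 13 were lower and 2 higher beyond counting error (39.1% and 38.8% of all genes). Of the 2, Smarcd2 and Smarcc1, the sign of Smarcc1 turned under the same-sum scaling. The median log2 ratio was -0.20 (quartiles -0.49 and -0.05). Of the core of the stem cell complex, Smarca4, its ATPase, had an FPKM of 63.1 and 61.5, Smarcc1 had 52.7 and 55.9, and Smarcd1 had 42.6 and 40.9. Smarcb1, found in both canonical forms of the complex, had 61.6 and 54.1 (log2 ratio -0.19). Smarce1, a DNA-binding subunit, had 46.5 and 31.8 (-0.55, interval -0.63 to -0.47). Arid1a and Arid1b, the large subunits that define BAF, had log2 ratios of -0.21 and -0.33. The 4 genes of the PBAF form, Arid2, Pbrm1, Brd7 and Phf10, lay between -0.21 and -0.03, and Brd9 of the non-canonical form had -0.16.

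Shares within paralogue sets are the same under every scaling of a library, so they were used to compare stem cell with lineage isoforms. In the Smarcd set, Smarcd1 held 55.9% of the summed FPKM in Diff–CONT against 52.5% in the library labelled Diff–iKO. Smarcd2, the form known from blood cells, held 31.6% and 38.7%, with an FPKM of 24.1 and 30.2 (log2 ratio 0.32, interval 0.22 to 0.42). Smarcd3, the form known from heart and muscle, held 12.5% and 8.87%, with 9.57 and 6.92 (log2 ratio -0.47, interval -0.70 to -0.24). Thus the stem cell form Smarcd1 and the muscle form Smarcd3 both held smaller shares, and Smarcd2 a larger one.

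In the Actl6 set, Actl6a, the form of dividing cells, made up nearly all of both libraries (96.5% and 98.4%). Actl6b, the form of neurons, had an FPKM of 1.64 and 0.949, from 69 and 30 fragments, and did not reach the minimum of 2 in either library. Its log2 ratio was -0.79 (interval -1.45 to -0.15).

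The Dpf set held the largest ratio among the 60 genes. Dpf3, a reader of modified histones known from heart and muscle, lies on chromosome 12 from 83213745 to 83487716. It had an FPKM of 3.39 in Diff–CONT against 0.884 in the library labelled Diff–iKO, from about 112 and 22 fragments. Its log2 ratio was -1.94 (interval -2.66 to -1.26). Dpf2, the broadly used form that esBAF carries, was also lower, with 30.01 and 18.2 (log2 ratio -0.72, interval -0.84 to -0.61). Dpf1, the form of neurons, had 3.77 and 4.52, with an interval of -0.01 to 0.53 that includes 0. The share of Dpf2 went from 36.8% to 28.7% and that of the PBAF member Phf10 from 54.4% to 62.7%. Of the lineage isoforms in the Smarcd, Actl6 and Dpf sets, Dpf3, Smarcd3 and Actl6b were thus lower beyond counting error (39.1% of all genes), Smarcd2 was higher (38.8%), and the direction of Dpf1 was not resolved at this depth.

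The Smarca2/4 and Smarcc pairs shifted toward the form that esBAF carries. Smarca4 held 77.5% of the Smarca4 and Smarca2 sum in Diff–CONT against 83.4% in the library labelled Diff–iKO, with Smarca2 at 18.3 and 12.2 (log2 ratio -0.58). As shares of fragments, recovered from FPKM with the shortest transcript of each gene, Smarca4 held 91.1% and 93.7%. Smarca2 has annotated transcripts of 1962 and 5921 nucleotides. Its FPKM depends on how they were weighed, and its fragments on which length is taken. Shares with the longest transcript were not computed, so the size of this shift is not settled. Smarcc1 held 59.3% and 65.2% of its pair with Smarcc2 (36.1 and 29.8). Shares moved little in the Arid1 pair, where Arid1a held 84.5% and 85.6%, and in the Brd7 and Brd9 pair, where Brd9 held 35.7% and 36.6%.

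Markers of cell types also differed between these libraries. Of 11 pluripotency genes, 10 were higher in the library labelled Diff–iKO (49.7% of all genes) and Lin28a was lower, with a median log2 ratio of 2.17. The list summed to an FPKM of 587 and 3035, or 329 and 920 without Dppa5a, its most abundant gene. Of 11 cardiomyocyte genes, 10 were lower, with sums of 83.1 and 24.7 (Tnnt2, which encodes cardiac troponin T, had 14.7 and 4.17), and of 11 neuron genes, 10 were lower and Stmn2 was higher, with a median log2 ratio of -0.87 and sums of 145 and 127, or 109 and 70.3 without Stmn2. Of 10 trophoblast genes, 7 were higher (119 and 157, or 79.9 and 70.8 without Krt7), with Hand1 (70.8 and 31.3), Cdx2 (4.00 and 0.705) and Gcm1 lower, and of 10 visceral endoderm genes, 10 were lower (184 and 11.5). None of these markers was at 0 in either library. Their part in the isoform values was not tested.

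**Figure D4:**
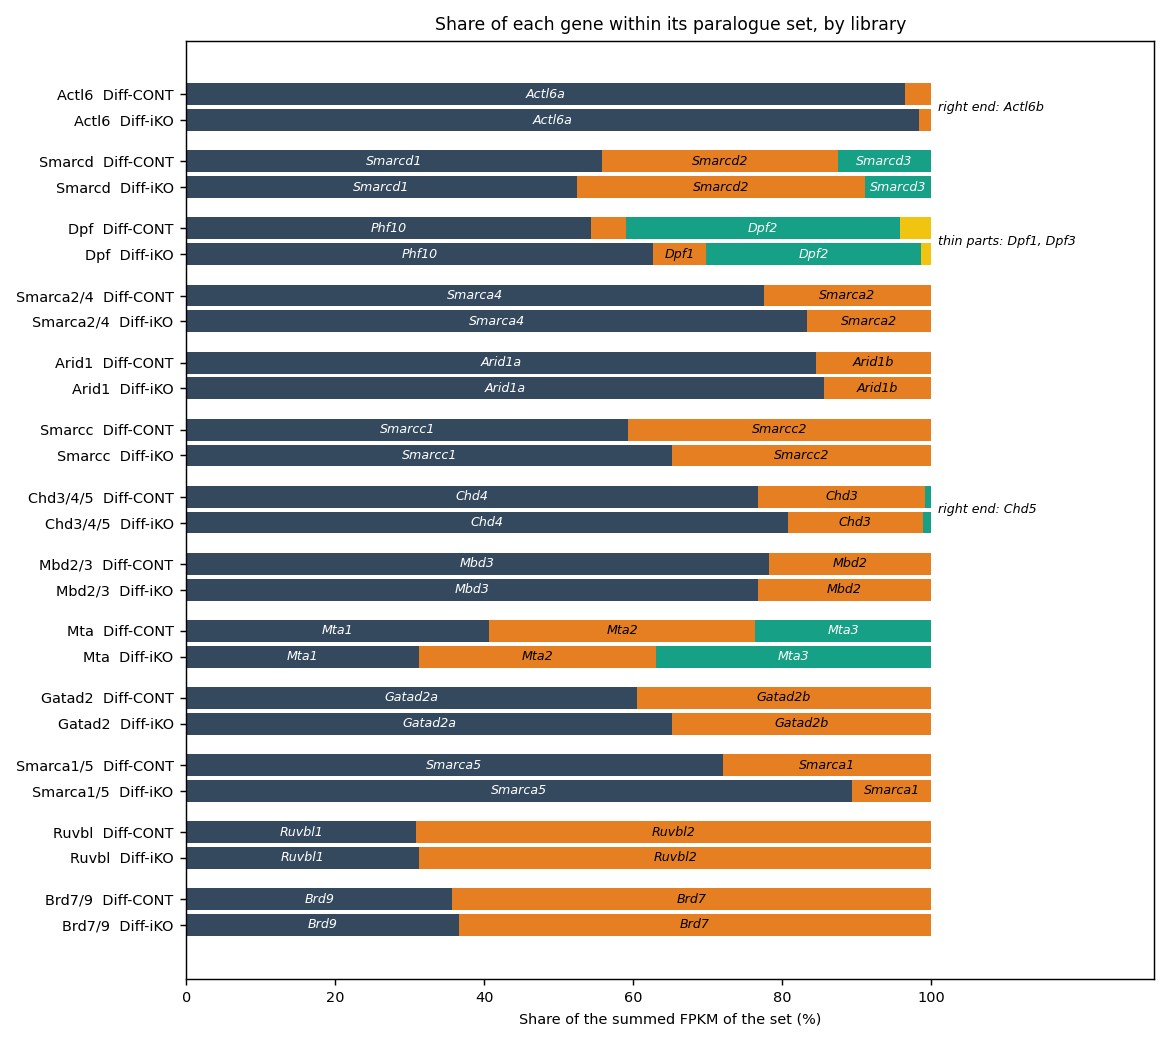
Share of each gene in the summed FPKM of its paralogue set, 1 bar per library, for 13 sets. Smarca5 against Smarca1 and Mta3 against Mta1 and Mta2 show the widest shifts, and Ruvbl1 against Ruvbl2 the smallest together with the minor changes of Brd7/9 and Arid1.

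NuRD joins a CHD ATPase to histone deacetylases. The 13 NuRD/CHD genes had a median log2 ratio of 0.04, with 7 higher and 6 lower values, against 49.7% of all genes higher. Mta2, 1 of the 7, turned under the same-sum scaling. Chd4 was close to the same (log2 ratio -0.06), and so was Mta2 (57.1 and 58.7). Mta3 had the largest ratio of the 13. This subunit of NuRD, on chromosome 17 from 83706163 to 83821516, had 37.6 and 68.2, which is 1.81-fold higher with a log2 ratio of 0.86 (interval 0.77 to 0.95). Its share of the Mta set went from 23.6% to 36.9%, while Mta1 went from 40.6% to 31.3%. Gatad2a (29.5 and 35.9, log2 ratio 0.28) was higher, Gatad2b (19.3 and 19.1) was within counting error, and the methyl-CpG binding family proteins Mbd2 (18.1 and 21.1) and Mbd3 (64.8 and 69.7) had log2 ratios of 0.23 and 0.11.

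Among the other CHD ATPases, Chd7, which is mutated in CHARGE syndrome, had an FPKM of 15.8 and 10.2 (fold 1.54, log2 ratio -0.63, interval -0.70 to -0.55). Chd3 had 38.1 and 28.0 (-0.45). Chd8 was higher, with 27.7 and 32.0 (0.21), and Chd1 had 21.2 and 20.2 (-0.07). Chd5 stayed under an FPKM of 2 in both libraries, with 1.25 and 1.74 (0.47, interval 0.26 to 0.69).

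ISWI remodelers space nucleosomes evenly and use either Smarca5 (SNF2H), which prevails in dividing progenitors, or Smarca1 (SNF2L), which is best known from neurons. The 120 bases before the RefSeq start of both genes are shown because the pair differed most, with each CpG in capitals. They lie at chr8:80739460-80739579 (minus strand) for Smarca5 and chrX:47892614-47892733 (minus strand) for Smarca1, in GRCm38.p6.
Smarca5: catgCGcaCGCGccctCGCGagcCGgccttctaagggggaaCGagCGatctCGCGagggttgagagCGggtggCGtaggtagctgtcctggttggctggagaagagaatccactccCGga
Smarca1: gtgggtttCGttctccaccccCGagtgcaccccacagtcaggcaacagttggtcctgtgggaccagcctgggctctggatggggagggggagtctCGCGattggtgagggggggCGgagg
Over the full 250 bases before each start, Smarca5 held 29 CpG and Smarca1 held 6, and the median was 21 over 57 member promoters and 6 over all 32851 promoters. In GENCODE vM21 the Smarca1 gene runs to 47892974, so its bases lie wholly inside the gene. The Smarca5 gene runs to 80739497, so only part of its bases do. The CpG counts of the pair therefore do not compare like positions.

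Smarca1, the X-linked member of the 60 genes, had an FPKM of 15.1 in Diff–CONT and 4.85 under the Diff–iKO label. It was 3.10-fold lower, and the log2 ratio was -1.63 (interval -1.79 to -1.48, from 1722 and 415 fragments). Smarca5 had 38.8 and 40.9 (log2 ratio 0.08), so its share of the pair went from 72.0% to 89.4%. Bptf, the largest subunit of NURF, had 23.7 and 23.5, and Baz1a, a partner of Smarca5, had 8.49 and 8.15. The X chromosome differed between these libraries in other ways. Xist had an FPKM of 0.0639 and 3.59, the 4 Y-linked genes were lower, with log2 ratios from -2.64 (Uty, 4.14 and 0.664) to -1.10 (Ddx3y, 4.07 and 1.89), and X-linked genes had a median log2 ratio of 0.17, so Smarca1 lay against the median of its chromosome. Of the X-linked genes, 7.55% were 2-fold or more lower, against 8.39% of all genes. The part of these values in that of Smarca1 was not tested.

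RefSeq promoters were found for 47 of the 60 genes, giving 57 promoters. Their median GC content in the 250 bases before the start was 64.0%, against 52.4% for all promoters. Letters known for promoter-binding factors were searched there on both strands, with motifs picked after expression values were seen. Overlapping promoters of a gene were each counted, and members were not matched to all promoters in GC or CpG content. The ETS letters CCGGAAG stood in 13 of the 57 (22.8%) and in 6.91% of all promoters. Among the 13 are overlapping promoters of Actr6 and of Brd9. The YY1 letters AANATGGC stood in 5 (8.77%) against 3.91%, the NRF1 motif in 5 (8.77%) against 3.74%, E2F GCGGGAA in 5 (8.77%) against 3.82%, NFY CCAAT in 20 (35.1%) against 33.8%, and CRE TGACGTCA in 0 against 1.55%. YY1 is itself a subunit of INO80, and 2 of 12 INO80 promoters held its letters, those of Ino80b and Ino80e. The other 3 matches were at Znhit1, Arid1a and Arid1b, whose values were lower. The INO80 matches are shown with these letters in capitals, on the gene's strand, at chr6:83125299-83125366 (minus strand) and chr7:126862419-126862486 (minus strand).
Ino80b: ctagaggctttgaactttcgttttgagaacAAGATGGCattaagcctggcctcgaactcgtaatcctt
Ino80e: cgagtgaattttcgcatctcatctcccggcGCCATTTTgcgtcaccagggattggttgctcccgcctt
A match is a description of the letters and not a binding site.

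Further remodeler genes, 50 in a list of partners and related ATPases, were read in the same way. Of the 49 that reached an FPKM of 2, 1 was 2-fold lower and 0 were 2-fold higher (8.39% and 6.73% of all genes), and 7 were 1.5-fold or more lower and 0 higher (17.6% and 14.9% of all genes). Bcl7a, a small BAF subunit, had 16.1 and 6.60 (log2 ratio -1.29, interval -1.42 to -1.17). Gltscr1, a defining subunit of the non-canonical BAF form, had 8.43 and 5.04, while its paralogue Gltscr1l had 6.12 and 8.24. Bcl11a, a BAF-associated zinc finger gene, had 3.42 and 2.05. The remaining genes past 1.5-fold were the TIP60 genes Meaf6 (15.7 and 8.94) and Morf4l1 (145 and 93.7), Cdk2ap1 (26.3 and 16.3) and Hmgxb4 (23.0 and 13.4). In the list of 11 further NuRD and CHD genes, 8 were lower beyond counting error (39.1% of all genes) and 1, Sall1, was higher. The deacetylases and histone-binding proteins among the 8 had small differences, with Hdac1 at -0.26, Hdac2 at -0.29, Rbbp4 at -0.35 and Rbbp7 at -0.33 on the log2 scale.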

How the data were processed

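Poly(A) RNA of 2 libraries, 1 Diff–CONT and 1 labelled Diff–iKO, was measured. The authors deposited FPKM values per gene; the submitters' processing notes name STAR 2.7.9a, mm10, Cuffnorm and Cufflinks 2.2.1. Libraries were made with a stranded mRNA kit. The gene annotation, the strand option of the quantification and the read number are not given in the sources used here. Columns were assigned by name, and 0 other value columns were present. The log2 ratio was taken without a pseudocount. The cut-off was FC ≥ 2 (or 1.5) with FPKM ≥ 2 in at least 1 library, and medians were taken over genes whose FPKM averaged 1 or more. With 1 library per condition no test was possible.

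Fragments were recovered from 1277 and 1411 low values (0.5 to 6.5 fragments) of genes with a single RefSeq transcript no shorter than 1000 nucleotides, less 200 nucleotides. Of these values, 87.5% and 86.8% lay within 0.2 of a whole number (40% by chance). Intervals are Clopper-Pearson, on the shortest RefSeq transcript, and are approximate for the 23 members with several. Symbols matched GENCODE vM21 for 23323 genes and a RefSeq synonym for 667. Promoters are from RefSeq (GRCm38.p6). Of the members, 25 overlap a gene on the opposite strand. These overlaps make values uncertain only if the kit's strand information was not used, which is not stated. Srcap and Baz1a also overlap a gene on the same strand, Gm42715 over 41636 nucleotides and Gm20403 over 372. Strand information does not resolve those overlaps.

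The members and lists were chosen with earlier results of these data known. Every member was accounted for; given one by one were Ino80, members past 2-fold or 1.5-fold, the Smarcd, Actl6 and Dpf sets, the ATPases and the highest and lowest member by FPKM of each complex. Of other remodeler genes, those past 1.5-fold were named. The NuRD partners, paralogue Gltscr1l and single-chain ATPases were named after their values were seen. On simulated data of 23990 genes, 200 genes averaging an FPKM of 5 or more were changed 4-fold. Of these 100% were recovered, 12 unchanged genes were called and 95.5% of intervals of unchanged genes held 0. The simulated counts held counting error alone. Smaller folds, and changed genes of lower level such as Dpf3, were not simulated. Alternatives were other FPKM filters, pseudocounts of 0.1 and 1, 3 scalings, 99% intervals and the longest transcript. Values were computed in Python 3.11.15 with pandas 2.3.3 and numpy 2.4.6, intervals with scipy 1.17.1, and plots with matplotlib 3.10.9.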

Additional observations from a re-analysis of the deposited data

How the results depend on the processing

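Of 79 alternative values for 20 results, 73 stayed within a set tolerance and 6 moved more. For a count the tolerance was 1.5 times the reported count. For a median it was the median distance from a ratio to the end of its counting interval, and for Ino80 the distance of its own interval. For a share it was the mean distance over the counting intervals of that share in both libraries. Requiring FPKM ≥ 2 in both libraries left 1 member past 2-fold, Smarca1. Without the shared subunits, the INO80 and SRCAP/TIP60 median was 0.050. With each library scaled to the same sum of FPKM, the median was -0.16 for SWI/SNF, NuRD/CHD and ISWI together and -0.29 for SWI/SNF, and within that tolerance it was -0.18 for SRCAP/TIP60, 0.27 for INO80 and 0.12 for INO80 and SRCAP/TIP60 together, with Ino80 itself at 0.12. Under this scaling 16 members were higher and 31 lower beyond counting error (21 and 24 as deposited), and the sign turned for Actr8, Srcap, Kat5, Smarcc1, Mta2 and Smarca5. As shares of fragments, recovered with the shortest transcript, the change was -2.11 percentage points for Smarcd3 and -1.70 for Dpf3, against -3.66 and -2.76 as shares of FPKM. For Smarca4 it was 2.64 against 5.90. The values of Dpf3 and Smarca4 rest on that choice of length. Dpf3 has transcripts of 1298 and 3135 nucleotides, and Smarca2, the pair of Smarca4, of 1962 and 5921. Shares were not computed with the longest. The medians of single complexes, the counts under the same-sum scaling and the marker sums without 1 gene were added after seeing the data. No paired analysis was possible because each condition has 1 library, and for the same reason no library could be left out. Depth limits Dpf3 and Actl6b, the 2 members under 100 fragments in a library.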

Other observations

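ATPases of the SNF2 family that act largely as single chains were listed apart from the complexes. Of 12 such genes, 5 were higher beyond counting error in the library labelled Diff–iKO, near the 38.8% of all genes, and 0 were lower (39.1% of all genes). The median log2 ratio was 0.12, and the genes named here were picked after their values were seen. Smarcad1, which acts on nucleosomes behind replication forks, had an FPKM of 20.1 and 29.5 (log2 ratio 0.55, interval 0.48 to 0.63). Btaf1, which removes the TATA-binding protein from DNA, had 10.5 and 15.2 (0.54), Hells, needed for DNA methylation of repeats, had 30.9 and 44.2 (0.51), and the X-linked Atrx, which deposits H3.3 with Daxx, had 40.1 and 53.9 (0.43). None of the 12 reached 1.5-fold in either direction.

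The summed FPKM of the 15 INO80 genes was 359 in Diff–CONT against 439 in the library labelled Diff–iKO, and that of the 20 SWI/SNF genes was 597 and 529. The sum over all 60 genes was 1753 and 1758.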
